A study of Mus musculus with 3 samples.

Results

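The genes described here are 8 that are used to recognise pancreatic alpha cells: Gcg, Ttr, Irx1, Irx2, Pou3f4, Slc38a5, Gc and Gpx3. They were taken by symbol from the 32285 genes of each count matrix, and all 8 were present in all 3 libraries. UMI counts (unique molecular identifiers, 1 per captured transcript molecule) were summed over marker-defined cell classes in each library. Each sum was then set beside the level that free RNA leaves in cells which do not make islet hormones.

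Islet cells came from mice 9 months old in 3 groups: ASF-KO, SC35-KO and WT. ASF is another name of SRSF1 and SC35 of SRSF2, a pair of serine- and arginine-rich proteins that bind pre-mRNA and take part in choosing splice sites. Each genotype had 1 library, made by digesting the pancreas with collagenase, picking islets by hand, dissociating them with trypsin and capturing single cells in droplets, with a chemistry that reads transcripts from their 3' end. The labels give no Cre driver, allele, sex or number of mice for any group. The study's title concerns these factors in the development of diabetes. With 1 library per genotype no difference between genotypes could be tested, and no p-value is given. Every interval is a 95% interval that covers counting error only, and a difference between libraries cannot be told apart from a difference between the genotypes or between mice.

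The libraries held 148320213 UMIs in ASF-KO, 150116204 in SC35-KO and 154099078 in WT. After the cell filter and removal of called doublets, 7082, 10799 and 8997 cells were kept in the same order, with medians of 16965, 9871 and 14300 UMIs. Between 32 and 45 cell barcodes were shared by a pair of libraries, at most 0.419% of the barcodes of the smaller one. In alpha cells the targeted genes were not lower under either KO label: Srsf1 was at 103 CPM (the UMIs of a gene in the class sum, scaled to the usual common total) in the library labelled ASF-KO and 67.0 CPM in WT, and Srsf2 at 51.3 CPM in the library labelled SC35-KO and 47.5 CPM in WT. A 3' tag outside a deleted part checks nothing, so these counts are no check of the labels.

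Alpha cells secrete glucagon, the hormone that raises blood glucose by driving glycogen breakdown and glucose production in the liver. Glucagon is cut from the precursor that Gcg encodes, inside secretory granules, by the protease PCSK2. Among the transcription factors that mark alpha cells are members of the Iroquois family (Irx1, Irx2) and the POU factor Pou3f4, also called Brn4, that binds the glucagon promoter. Ttr encodes transthyretin, a carrier of thyroid hormone and, with RBP4, of retinol. Gc encodes the vitamin D binding protein, Gpx3 a secreted selenium-containing glutathione peroxidase, and Slc38a5 an amino acid transporter of the System N type that carries glutamine and serine.

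The promoters of Gcg, Irx2 and Gc are shown because these genes differ in their spread over the hormone cells: in delta and gamma cells Gcg and Irx2 had a much lower CPM than in alpha cells, and Gc did not. The sequences are the 250 bases before the annotated start, on the gene's own strand, from RefSeq (GRCm38.p6), whose table matched 6 of the 8 members. The entries of Irx1 and Ttr were missing. Capitals mark 4 motifs on both strands, with overlaps left in 1 run: the homeodomain core TAAT, the E-box CANNTG, the forkhead motif TNTTTAC and, on the gene strand only, the TATA box TATAAA.
Gcg, chr2:62483654-62483903, minus strand: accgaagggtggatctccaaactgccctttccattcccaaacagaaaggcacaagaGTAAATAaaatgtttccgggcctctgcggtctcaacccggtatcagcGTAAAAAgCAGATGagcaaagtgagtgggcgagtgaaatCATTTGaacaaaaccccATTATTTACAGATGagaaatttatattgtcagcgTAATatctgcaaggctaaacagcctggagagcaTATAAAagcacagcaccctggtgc
Irx2, chr13:72628570-72628819, plus strand: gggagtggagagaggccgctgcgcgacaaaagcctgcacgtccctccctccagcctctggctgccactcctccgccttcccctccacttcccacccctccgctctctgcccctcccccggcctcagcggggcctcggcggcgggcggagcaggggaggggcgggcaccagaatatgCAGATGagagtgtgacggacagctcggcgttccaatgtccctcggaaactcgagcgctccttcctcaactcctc
Gc, chr5:89457899-89458148, minus strand: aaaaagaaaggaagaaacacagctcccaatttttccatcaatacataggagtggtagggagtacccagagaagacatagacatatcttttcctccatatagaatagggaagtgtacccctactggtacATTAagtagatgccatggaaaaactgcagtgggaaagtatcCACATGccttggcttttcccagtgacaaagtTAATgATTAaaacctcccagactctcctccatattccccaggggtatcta
The Gcg window held 2 TAAT, 3 E-box, 3 forkhead and 1 TATA matches, the Irx2 window 0, 1, 0 and 0, and the Gc window 3, 1, 0 and 0. Of 32536 promoters of the same length, 54.8% held a TAAT, 66.2% an E-box, 10.9% a forkhead motif and 7.55% a TATA box, so the first 2 motifs are common by their letters alone. A match is a description of the sequence and not of binding.

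Per the GENCODE M21 annotation of GRCm38, the build that mm10 denotes, Gcg lies at chr2:62474530-62483650, Irx1 at chr13:71957921-71963723, Irx2 at chr13:72628820-72634198 and Pou3f4 at chrX:110814280-110817207. Slc38a5 lies at chrX:8271133-8280179, Gc at chr5:89417522-89457898 and Gpx3 at chr11:54902453-54910377, and Ttr is on chromosome 18. All 8 are protein-coding. Irx1 and Irx2 lie on the same chromosome, on opposite strands.

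Alpha cells were gated on a pair of marker genes that holds none of the 8 members: at least 2 UMIs and 100 CPM of the pair, in a cell that passed the gate of no other class. This gave 1261 cells in ASF-KO, 2102 in SC35-KO and 1175 in WT, or 17.8% (16.9 to 18.7), 19.5% (18.7 to 20.2) and 13.1% (12.4 to 13.8) of the kept cells (exact Clopper-Pearson intervals). Nearly all of them were rich in glucagon transcript: Gcg made up at least 2% of the UMIs in 99.3% of the alpha cells of ASF-KO, 99.2% of SC35-KO and 97.9% of WT. Of the other alpha markers listed, Tmsb15l was not analysed here, and Slc7a2, Smarca1, Nxph1, Sphkap and Peg3 were all detected, Peg3 at 1477, 914 and 1067 CPM and Slc7a2 at 607, 389 and 391 CPM. Slc7a2, Nxph1 and Sphkap had a higher CPM in alpha than in beta, delta and gamma cells of each library. Peg3 and Smarca1 did not set alpha cells apart from delta cells. In WT, Peg3 did not set alpha cells apart from beta cells either, at 1129 CPM in beta and 1067 CPM in alpha cells. Delta cells had Peg3 at 1535, 1184 and 1015 CPM. Their Smarca1 was at 215, 145 and 160 CPM, where alpha cells had 163, 128 and 165. Endothelial markers were nearly absent from the alpha sums, with 0 of 7 above 10 CPM and a summed 12.3, 10.7 and 19.3 CPM. Markers of several other classes were present: the 9 beta markers summed to 27027, 24802 and 18305 CPM, the 5 gamma markers to 37875, 45571 and 50090 CPM, the 6 delta markers to 1326, 1376 and 1302 CPM and the 6 acinar markers to 534, 56.5 and 315 CPM. Their part in the results was not tested.

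Gcg was by far the most abundant of the members in alpha cells. It had 2600398 UMIs in the alpha cells of ASF-KO, 4567849 in SC35-KO and 2200430 in WT, which is 21.7%, 25.9% and 18.3% of their UMIs. Per cell that was a mean of 2062, 2173 and 1873 Gcg UMIs. Alpha cells held 82.8%, 75.8% and 75.8% of all Gcg UMIs of kept cells.

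Ttr was the next of the members, at 31468, 38774 and 29768 CPM in ASF-KO, SC35-KO and WT, or 299, 325 and 305 UMIs per alpha cell. Both stand far above the rest. Since 1 molecule gives 1 tag at its 3' end whatever its length, these levels can be set beside each other without scaling to length. Gpx3 followed with 1220, 940 and 1226 CPM, and then Gc with 260, 186 and 188 CPM.

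The transcription factors and the transporter were sparse. Irx2 had 156, 131 and 140 CPM in the alpha cells of ASF-KO, SC35-KO and WT, and Irx1 had 104, 97.0 and 98.6 CPM, about 1 UMI per cell each. Slc38a5 had 43.2, 39.0 and 62.5 CPM, and Pou3f4 10.9, 5.22 and 10.8 CPM from only 130, 92 and 130 UMIs. The order from Gcg down to Pou3f4 was the same in all 3 libraries, and no neighbours in it had overlapping Poisson intervals within a library.

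**Figure D1:**
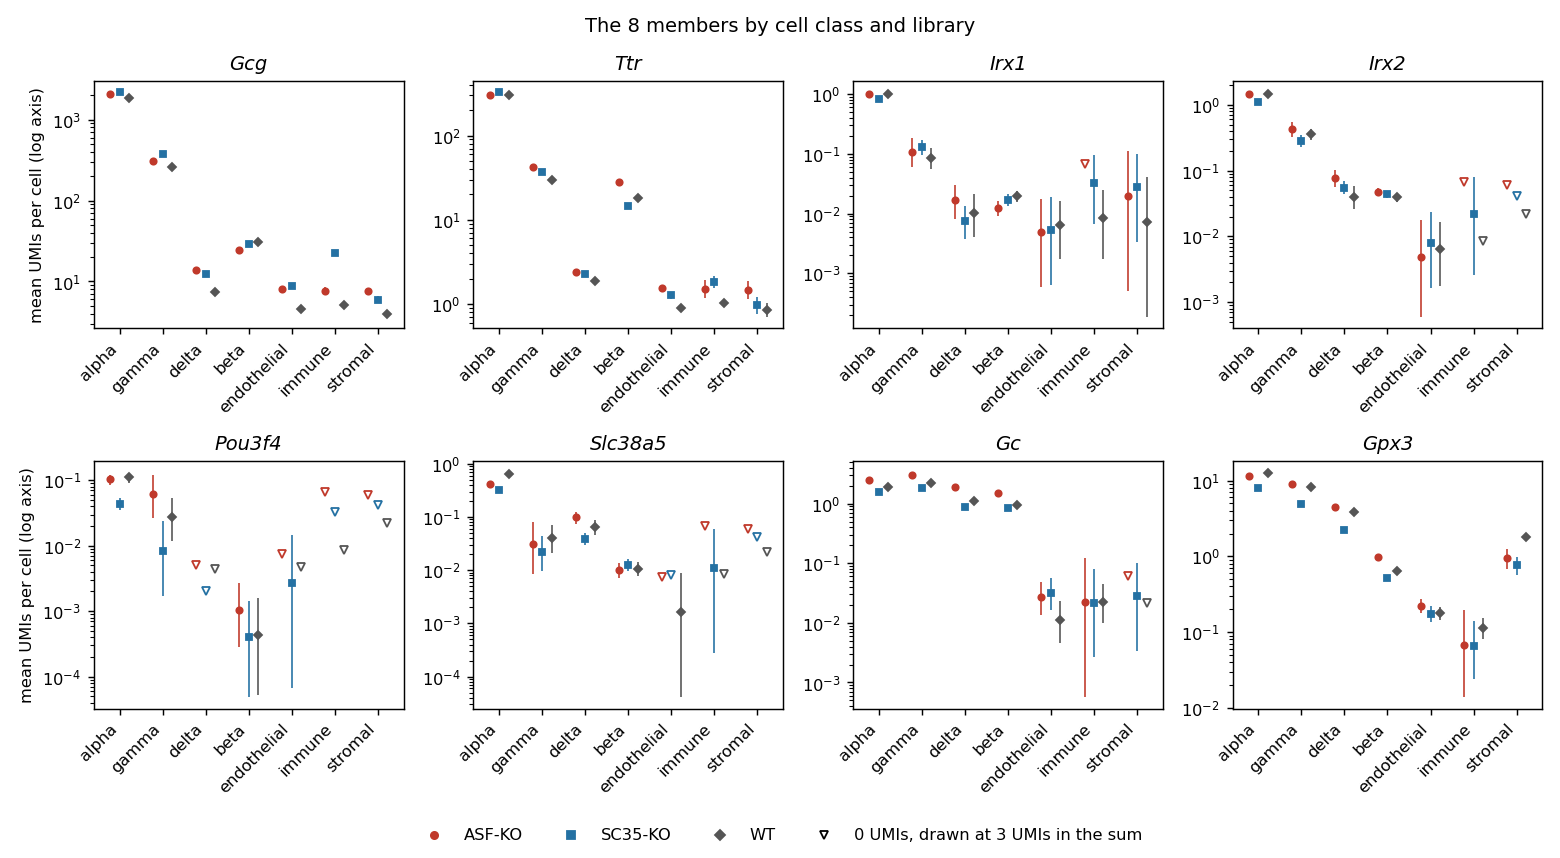
Mean UMIs per cell (log axes) of each of the 8 genes in 7 cell classes, with 1 point per library (ASF-KO, SC35-KO, WT) and 95% Poisson intervals of the sum; open triangles mark sums of 0, drawn at 3 UMIs. For Gcg, Ttr, Irx1, Irx2 and Slc38a5 the alpha points stand above all others, while the Gc points of gamma cells lie above those of alpha cells in each library.

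Single alpha cells varied less in Gcg than in Ttr. The median alpha cell gave 21.2% of its UMIs to Gcg in ASF-KO, 25.6% in SC35-KO and 18.4% in WT, and the 5th to 95th percentiles over cells ran from 11.8% to 30.0%, from 15.8% to 33.9% and from 8.83% to 25.3%. For Ttr the median was 2.74%, 3.43% and 2.31%, and the same range ran from 0.659% to 6.46%, from 0.778% to 7.94% and from 0.548% to 6.80%, a wider range relative to its median. The groups overlapped for both genes at the level of single cells.

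**Figure D2:**
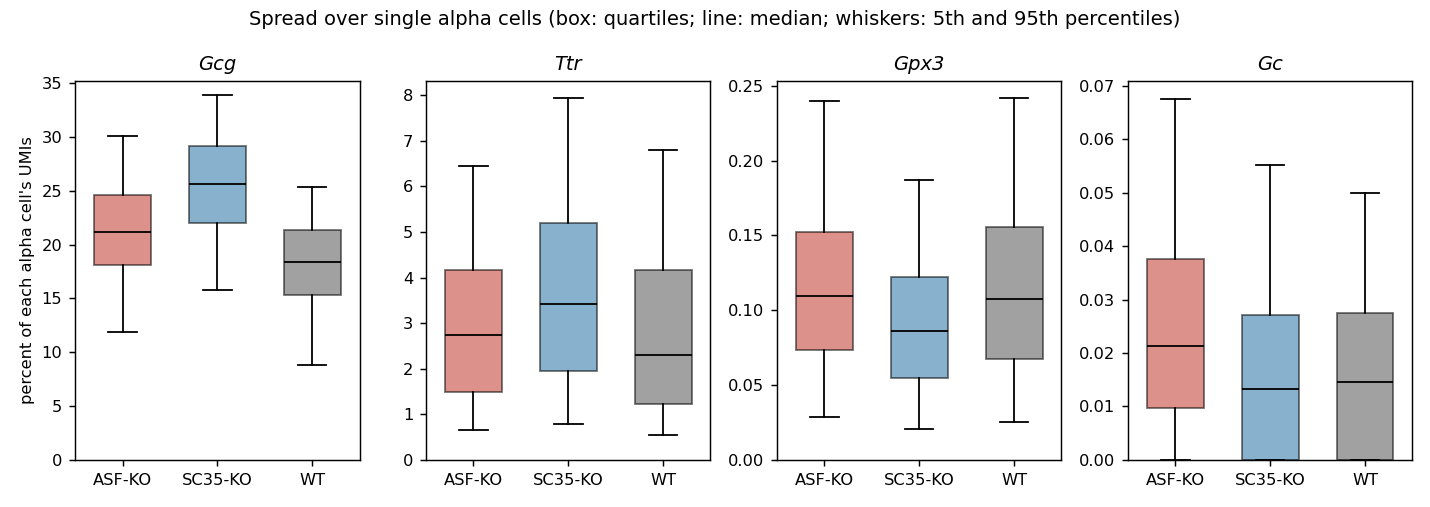
Percent of each alpha cell's UMIs taken by Gcg, Ttr, Gpx3 and Gc in ASF-KO, SC35-KO and WT (boxes are quartiles, lines medians, whiskers the 5th and 95th percentiles over cells of 1 library each). The SC35-KO box of Gcg (median 25.6%) lies above the WT box (median 18.4%), and the boxes of Ttr overlap.

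Whether a sparse gene is seen in a cell depends on depth, so alpha cells were thinned to 2000 UMIs each, which left out 4, 20 and 5 shallower cells. At that depth an Irx2 UMI was seen in 27.05% of the alpha cells of ASF-KO (24.6 to 29.6), 23.3% of SC35-KO (21.5 to 25.2) and 24.7% of WT (22.3 to 27.3). In endothelial cells, which should lack it, the share was 0.275%, 0.803% and 0.580%. Without thinning the alpha shares were 71.6%, 62.4% and 70.6%, at median depths of 9273, 8188 and 10137 UMIs, and those of endothelial cells 0.491%, 0.532% and 0.641% at 3318, 2460 and 2959 UMIs. Irx1 was seen in 18.1%, 17.0% and 16.4% of thinned alpha cells, Slc38a5 in 7.72%, 5.67% and 7.78%, and Pou3f4 in 2.70%, 1.01% and 2.05%. Thinned shares of Gcg show the reach of free RNA: every alpha cell of ASF-KO and 99.95% and 99.7% of those of SC35-KO and WT had a Gcg UMI, and so had 97.3%, 99.2% and 91.7% of the endothelial cells of ASF-KO, SC35-KO and WT.

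Free RNA is transcript from broken cells that enters every droplet. Endothelial cells, which line the islet capillaries and do not transcribe Gcg, had 8.15, 8.87 and 4.58 Gcg UMIs per cell in ASF-KO, SC35-KO and WT. Stromal cells had 7.60, 5.99 and 3.96, and the median immune cell had 7, 6 and 4. These classes were within 1.5 times of each other in each library, and both KO libraries had more than WT. The mean over the 92 immune cells of SC35-KO was higher, at 22.3 UMIs. Barcodes under 1000 UMIs, which the cell filter leaves out, had 13.2, 14.4 and 10.8 Gcg UMIs each.

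The order of the classes in Gcg depended on the scale, as endothelial cells are shallow. Beta cells had 884, 1629 and 1322 CPM of Gcg, less in each library than the 2329, 3120 and 1396 CPM of endothelial cells. Per cell the order turned: 24.8, 29.4 and 30.4 Gcg UMIs in beta cells against 8.15, 8.87 and 4.58 in endothelial cells. Levels outside alpha cells are therefore given per cell, and a sum is called above free RNA at 2 or more times the endothelial mean of its library, from more than 3 UMIs.

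**Figure D3:**
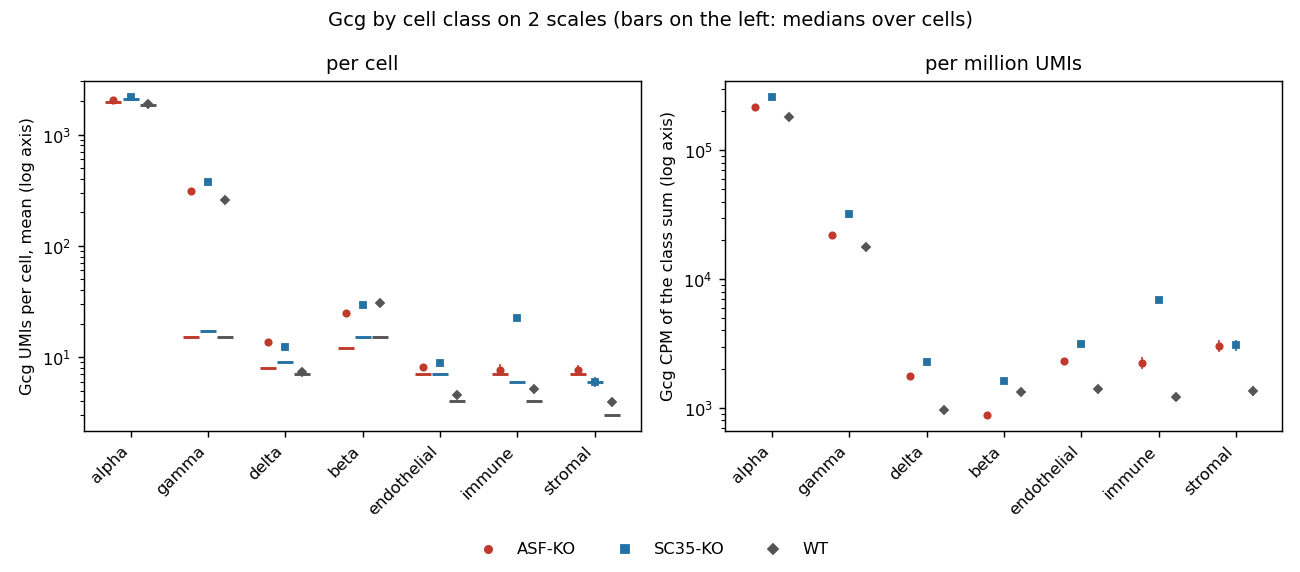
Gcg in 7 cell classes on a per-cell scale (left, mean UMIs per cell as points, medians as bars) and in CPM of the class sum (right), both on log axes, with 1 point per library and 95% Poisson intervals. The median gamma cell has 15, 17 and 15 Gcg UMIs where the mean is 312, 375 and 258, and endothelial cells pass beta cells only on the right-hand scale.

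Of the 72 sums of a member in beta, delta or gamma cells of a library, 56 were above free RNA. Leaving out cells with at least 2% Gcg, an alternative chosen after seeing the data, left 48, and a filter of at least 5000 UMIs left 31, with only 48, 31 and 52 endothelial cells to compare with. With immune cells as the free RNA level 44 were above it, and with barcodes under 1000 UMIs 53 were. Gc, Gpx3 and Irx2 were above it in all 9 of their sums. Pou3f4 was above it only in gamma cells, in 2 of 3 libraries.

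Gcg itself was near the free level in delta cells, which make somatostatin. They had 13.7, 12.2 and 7.39 Gcg UMIs per cell in ASF-KO, SC35-KO and WT, 1.68 (1.61 to 1.75), 1.38 (1.33 to 1.43) and 1.61 (1.54 to 1.69) times the endothelial level, under the 2-fold limit in all 3 libraries. In beta cells the mean was 3.04, 3.31 and 6.63 times that level. Against immune cells the beta mean was 3.20, 1.32 and 5.91 times the level, under the limit in SC35-KO, and against barcodes under 1000 UMIs it was 1.87, 2.04 and 2.83 times, under the limit in ASF-KO. The median beta cell, with 12, 15 and 15 Gcg UMIs against 7, 7 and 4 in the median endothelial cell, was at 1.71, 2.14 and 3.75 times, a comparison of medians chosen after seeing the data. Without the 23, 69 and 56 beta cells of at least 2% Gcg, the beta sums of ASF-KO and SC35-KO were no longer above free RNA and that of WT was.

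Gamma cells, which make pancreatic polypeptide, were split. Their mean of 312, 375 and 258 Gcg UMIs came mostly from 34 of 129, 99 of 365 and 68 of 295 cells with at least 2% Gcg. In those cells Gcg was at 89449, 130853 and 86215 CPM, Irx2 at 73.3, 61.6 and 79.9 CPM, Irx1 at 30.7, 35.7 and 20.9 CPM and Ttr at 8658, 9760 and 6313 CPM. In the other gamma cells Gcg was at 1690, 1588 and 1729 CPM, Irx2 at 17.2, 12.4 and 11.6 CPM, Irx1 at 0.716, 3.33 and 2.31 CPM and Ttr at 1275, 1080 and 1014 CPM. The Gcg-rich gamma cells thus carried Irx1 and Irx2 along with both hormones, at lower CPM than alpha cells. Their median depth was 11797, 10289 and 11859 UMIs, against 12932, 11890 and 15078 UMIs in the other gamma cells. Splitting the gamma cells by Gcg was chosen after seeing the data.

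The Iroquois pair was also low outside alpha and gamma cells. Beta cells had 47, 85 and 89 Irx1 UMIs in 3828, 5024 and 4581 cells, or 0.438, 0.938 and 0.845 CPM. That is 2.50 (0.654 to 21.2), 3.18 (0.854 to 26.7) and 3.03 (1.14 to 11.4) times the endothelial level, which rests on 2, 2 and 4 UMIs. It is also 0.496, 0.576 and 0.639 Irx1 UMIs per 1000 Gcg UMIs, where alpha cells had 0.479, 0.375 and 0.540, a ratio of 1.04, 1.54 and 1.18. Irx2 had 1.69, 2.42 and 1.70 CPM in beta cells and 9.86, 10.1 and 5.12 CPM in delta cells. Delta cells had 5.60, 4.49 and 5.34 Irx2 UMIs per 1000 Gcg UMIs where alpha cells had 0.716, 0.507 and 0.766, so their Irx2 exceeded by 7.81, 8.86 and 6.98 times what came with their Gcg.

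Pou3f4 was detected almost only in alpha and gamma cells. Delta cells had 0 Pou3f4 UMIs in all 3 libraries, among 601, 1474 and 684 cells, which allows up to 0.643, 0.376 and 0.568 CPM (3 UMIs in the sum), and beta cells had 4, 2 and 2. Gamma cells had 8, 3 and 8. Alpha cells of ASF-KO and WT, with endothelial sums of 0, were at least 14.0-fold and 23.0-fold higher per cell than a floor of 3 UMIs in the endothelial sum, and those of SC35-KO were at 16.5 times (2.88 to 657) an endothelial sum of 1 UMI.

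Slc38a5 had a low second site in delta cells. It was at 12.7, 7.14 and 8.34 CPM there, from 59, 57 and 44 UMIs, against 43.2, 39.0 and 62.5 CPM in alpha cells. Endothelial cells had 0, 0 and 1 Slc38a5 UMIs, so delta cells were at least 13.3-fold and 4.85-fold higher per cell in ASF-KO and SC35-KO, and 40.1 times (6.84 to 1621) in WT. Per 1000 Gcg UMIs, delta cells had 7.18, 3.16 and 8.70 Slc38a5 UMIs, against 0.199, 0.150 and 0.342 in alpha cells. Beta cells were at 0.354, 0.707 and 0.465 CPM.

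Ttr was above free RNA in beta and gamma cells of all 3 libraries, at 27.5, 28.9 and 33.02 times the endothelial level in gamma cells. Beta cells had 27.8, 14.6 and 18.3 Ttr UMIs per cell in ASF-KO, SC35-KO and WT, 18.1 (16.7 to 19.6), 11.5 (10.5 to 12.6) and 20.6 (19.0 to 22.5) times the endothelial level. They had 1120, 496 and 603 Ttr UMIs per 1000 Gcg UMIs, against 145, 150 and 163 in alpha cells, 7.73, 3.32 and 3.70 times as many. In endothelial cells the ratio was 188, 143 and 194, close to that of alpha cells. Delta cells stayed near free RNA in Ttr as in Gcg, with 2.41, 2.25 and 1.86 UMIs per cell, 1.57, 1.77 and 2.10 times the endothelial level.

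Duct cells were a further site of Ttr outside the hormone classes. The 7, 37 and 76 ductal cells had 8.57, 25.7 and 25.7 Ttr UMIs per cell, 5.59 (4.22 to 7.29), 20.3 (18.1 to 22.7) and 29.0 (26.4 to 31.9) times the endothelial level. Their ratio to Gcg was 984, 1739 and 2290 per 1000. The ASF-KO value rests on 60 UMIs from 7 cells.

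Gc was pan-endocrine. It was at 248, 160 and 144 CPM in delta cells and 213, 153 and 153 CPM in gamma cells, beside 260, 186 and 188 CPM in alpha cells. Beta cells had 54.0, 46.9 and 40.6 CPM. Endothelial cells had 7.72, 11.2 and 3.41 CPM, from 11, 12 and 7 UMIs. All 9 sums of Gc in beta, delta and gamma cells were above free RNA, the lowest at 26.5 times (15.1 to 51.3) in the beta cells of SC35-KO. Per 1000 Gcg UMIs, delta cells had 140, 71.0 and 150 Gc UMIs, where alpha cells had 1.20, 0.717 and 1.03.

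Gpx3 was shared by alpha, gamma and delta cells and by the stroma. It had 638, 411 and 574 CPM in gamma cells, 584, 415 and 495 CPM in delta cells and 374, 393 and 613 CPM in stromal cells, against 1220, 940 and 1226 CPM in alpha cells. Beta cells had 34.8, 29.1 and 28.2 CPM. That is less than the 63.2, 61.8 and 54.1 CPM of endothelial cells, yet 4.41, 2.99 and 3.64 times their level per cell. Endothelial cells had 27.1, 19.8 and 38.8 Gpx3 UMIs per 1000 Gcg UMIs, against 5.62, 3.63 and 6.72 in alpha cells, so their Gpx3 was more than came with alpha cell RNA at alpha cell ratios, and the endothelial level is a high bar for this gene.

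**Figure D4:**
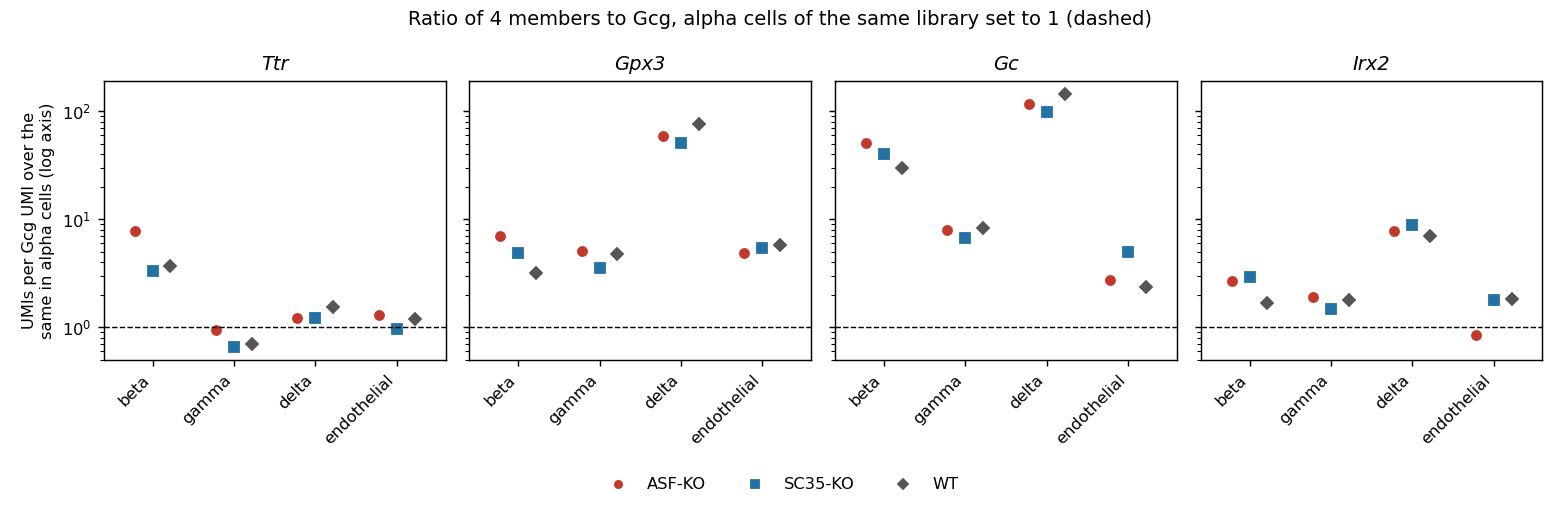
UMIs of Ttr, Gpx3, Gc and Irx2 per Gcg UMI in beta, gamma, delta and endothelial cells, divided by the same ratio in alpha cells of that library (dashed line at 1, log axis), with 1 point per library. Ttr lies near 1 in delta and endothelial cells and at 7.73, 3.32 and 3.70 in beta cells, and Gc and Gpx3 lie highest in delta cells.

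Against WT, Gcg and Pou3f4 were the only members past 1.5-fold of the median gene in the alpha cells of SC35-KO. Those of ASF-KO kept all 8 members within 1.5-fold of it. Slc38a5 had a lower CPM than WT under both labels. Genes with at least 10 CPM in 1 of the 2 sums entered the comparison, and a member was called higher or lower where it lay at least 1.5-fold from the median gene. A gene that reached 10 CPM in 1 sum alone could only be called toward that sum, so such calls are partly set by the limit. In ASF-KO the median gene stood at 1.03 times WT, and 0 of 8 members were higher and 0 lower, beside 4.42% higher and 6.67% lower of 8171 genes. In SC35-KO the median gene stood at 0.869 times WT, and 1 member (Gcg) was higher and 1 (Pou3f4) lower, beside 2.55% and 2.76% of 7931 genes. The members' median log2 ratio relative to the median gene was 0.04 in ASF-KO and 0.15 in SC35-KO. Both comparisons share the WT library.

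Gcg was at 259016 CPM in SC35-KO and 182557 CPM in WT, a ratio of 1.42 (1.42 to 1.42). Relative to the median gene this is 1.63, and the call rests on that step, since the CPM ratio itself is under 1.5. CPM is a share of a total that holds Gcg itself, and over totals without the 8 members the ratio was 1.59. In ASF-KO, at 217185 CPM, Gcg stood at 1.19 times WT (1.19 to 1.19), or 1.16 relative to the median gene. Insulin transcripts in the alpha sums were higher under both KO labels too, with Ins2 at 20464 CPM in ASF-KO, 16826 in SC35-KO and 11568 in WT, and their part was not tested.

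Ttr went with Gcg in SC35-KO, at 1.30 times WT (1.30 to 1.31). Relative to the median gene that is 1.499, just under the limit, and it passed in 3 of 10 alternatives. In ASF-KO it stood at 1.06 times (1.05 to 1.06). The ratio of Ttr to Gcg in alpha cells, 145, 150 and 163 per 1000, spanned a narrower range over the 3 libraries than either gene did. Between ASF-KO and WT alone, Ttr differed less than this ratio.

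Of the transcription factors, Pou3f4 was lower in SC35-KO. Its 92 UMIs in 2102 cells, against 130 in 1175 WT cells, gave 0.484 times (0.366 to 0.637) the WT level, 0.557 relative to the median gene, and all 10 alternatives called it lower. At 5.22 CPM in SC35-KO and 10.8 in WT, it entered through the WT sum alone, so lower was the only call open to it. In ASF-KO it stood at 1.01 times (0.783 to 1.29). Irx1 was at 1.06 (0.974 to 1.14) in ASF-KO and 0.984 (0.914 to 1.06) in SC35-KO, and Irx2 at 1.11 (1.04 to 1.19) and 0.939 (0.882 to 1.001).

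Slc38a5 was below WT under both labels. It stood at 0.691 times (0.617 to 0.774) in ASF-KO and 0.624 times (0.561 to 0.692) in SC35-KO, or 0.674 and 0.718 relative to the median gene, which in ASF-KO is close to the 1.5-fold limit. With all cells weighing equally the ASF-KO value was 0.645 and past it.

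The secreted proteins differed between the KO labels. Gc stood at 1.38 times WT (1.31 to 1.46) in ASF-KO and 0.988 times (0.936 to 1.04) in SC35-KO. Gpx3 stood at 0.995 times (0.972 to 1.02) in ASF-KO and 0.766 times (0.749 to 0.783) in SC35-KO, or 0.970 and 0.882 relative to the median gene.

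**Figure D5:**
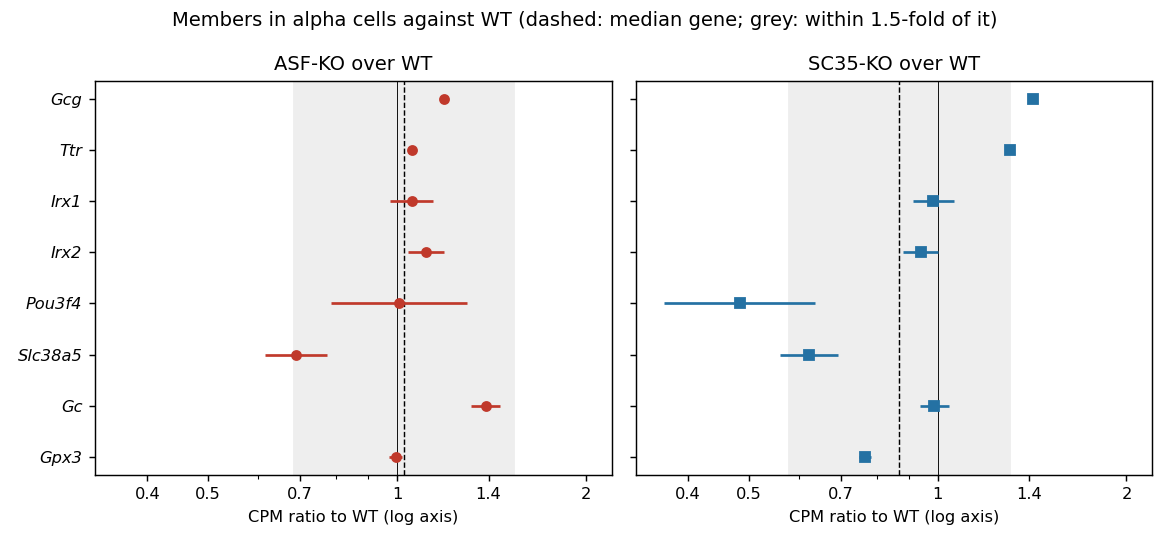
CPM ratio to WT (log axis) of the 8 genes in alpha cells of ASF-KO (left) and SC35-KO (right), with 95% intervals that cover counting error only, 1 library per genotype. The dashed line is the median gene (1.03 and 0.869) and the grey band is within 1.5-fold of it. All ASF-KO points lie in the band, and Gcg at 1.42 and Pou3f4 at 0.484 lie outside it in SC35-KO.

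In the other endocrine classes the calls were on the higher side. In beta cells 4 members were measured and the median gene stood at 0.739 times WT in ASF-KO and 0.738 in SC35-KO, so values relative to it differ from the CPM ratios. In ASF-KO 3 of the 4 were higher and 0 lower, beside 9.09% and 8.16% of 6570 genes: Ttr at 990 CPM in ASF-KO and 797 CPM in WT (1.68 relative to the median gene), Gc at 54.0 and 40.6 CPM (1.80) and Gpx3 at 34.8 and 28.2 CPM (1.67). In SC35-KO 2 of the 4 were higher and 0 lower, beside 3.65% and 2.6% of 6540 genes: Gcg at 1629 and 1322 CPM (1.67) and Gc at 46.9 and 40.6 CPM (1.57). After the endothelial level was subtracted, the CPM ratio of Gcg in SC35-KO beta cells was 1.01 where it had been 1.23.

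In delta cells Gc was at 248 CPM in ASF-KO and 144 CPM in WT, 1.72 times (1.57 to 1.89), and 5 members were measured, of which 3 were higher and 0 lower in ASF-KO, beside 5.33% and 7.7% of 8745 genes. The other 2 were Slc38a5, at 1.52 times (1.01 to 2.30) from 59 and 44 UMIs, and Gcg, at 1.84 times (1.78 to 1.91). Slc38a5 passed 10 CPM in the ASF-KO sum alone (12.7 CPM, and 8.34 in WT), so higher was the only call open to it. In SC35-KO 3 of 5 were higher and 0 lower, beside 3.27% and 3.96% of 8744 genes: Gcg at 2.36 times (2.28 to 2.43), Ttr at 1.72 times (1.61 to 1.83) and Irx2 at 1.98 times (1.27 to 3.19). Irx2 likewise passed 10 CPM in the SC35-KO sum alone (10.1 CPM, and 5.12 in WT). In ASF-KO, at 9.86 CPM and 1.93 times WT, Irx2 fell under the limit and was not measured. Gcg in delta cells was under 2 times the endothelial level in all 3 libraries, and so was Ttr in ASF-KO and SC35-KO. The endothelial level of Gcg itself was 8.15 and 8.87 UMIs per cell in the KO libraries and 4.58 in WT. After it was subtracted, the CPM ratio of Gcg in delta cells was 1.96 in ASF-KO and 1.71 in SC35-KO, and that of Ttr in SC35-KO was 1.43, under the limit. These Gcg ratios rest on means. Delta cells of at least 2% Gcg numbered 4 in ASF-KO, 6 in SC35-KO and 0 in WT, and their part was not tested. The median delta cell had 8, 9 and 7 Gcg UMIs in the same order, beside 7, 7 and 4 in the median endothelial cell.

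In gamma cells the median gene stood at 1.34 times WT in ASF-KO and 0.942 in SC35-KO. No member was called in ASF-KO, of 5 measured, beside 8.97% higher and 11.5% lower of 7059 genes. In SC35-KO 3 of 6 were higher and 0 lower, beside 5.78% and 7.31% of 6303 genes: Gcg at 1.78 times (1.77 to 1.80), Ttr at 1.54 times (1.495 to 1.579) and Irx1 at 1.86 times (1.12 to 3.16). Irx1 passed the CPM limit in the SC35-KO sum alone, at 10.9 CPM against 5.85 in WT, so higher was the only call open to it. The share of Gcg-rich cells among the gamma cells was 34 of 129 in ASF-KO, 99 of 365 in SC35-KO and 68 of 295 in WT. In the Gcg-rich gamma cells Gcg was at 130853 CPM in SC35-KO and 86215 in WT, and Ttr at 9760 and 6313 CPM. In the other gamma cells Gcg was at 1588 and 1729 CPM, and Ttr at 1080 and 1014 CPM. Of the 47 Irx1 UMIs in SC35-KO gamma cells, 36 came from the Gcg-rich ones, and of the 25 in WT, 17 did.

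Other genes of alpha cell biology in these alpha sums are given by list, beside the shares over all genes of 4.42% higher and 6.67% lower in ASF-KO and 2.55% higher and 2.76% lower in SC35-KO. Among 12 measured transcription factors, with the gate genes left out, 0 were higher and 0 lower in either KO, which is near the shares over all genes. Their median log2 ratio relative to the median gene was -0.15 in ASF-KO and -0.01 in SC35-KO. Farthest out was Rfx6, a factor needed for islet cell formation, at 30.6 CPM in SC35-KO and 52.7 CPM in WT (0.668 relative to the median gene). Pax6, which binds the glucagon promoter, was at 250 CPM in ASF-KO, 185 in SC35-KO and 275 in WT.

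Of 12 measured genes of glucagon processing and granules, 0 were higher and 1 lower in each KO, which is near the shares over all genes. In SC35-KO that was Pcsk2, the protease that cuts glucagon from its precursor, at 4170 CPM in SC35-KO and 7759 CPM in WT, 0.537 times (0.532 to 0.543). In ASF-KO it was the granule protein gene Vgf, at 7.85 CPM in ASF-KO and 12.9 CPM in WT. Vgf passed 10 CPM in the WT sum alone, so lower was the only call open to it. Chga, the granule protein chromogranin A, was at 7179 CPM in ASF-KO and 4690 CPM in WT, 1.492 relative to the median gene. The list's median was -0.14 in ASF-KO and -0.11 in SC35-KO.

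The sensing list held 4 higher and 2 lower of 19 measured in ASF-KO, beside 4.42% and 6.67% of all genes, and 1 higher and 2 lower of 18 in SC35-KO, beside 2.55% and 2.76%. Calls were more common in ASF-KO over all genes too. The amino acid transporters Slc7a8 (1.86 times, 1.70 to 2.04), Slc7a2 (1.55, 1.49 to 1.61) and Slc38a4 (1.57, 1.45 to 1.71) and the calcium-sensing receptor Casr (1.67, 1.25 to 2.22) were higher in ASF-KO. Casr passed the CPM limit in the ASF-KO sum alone, at 11.2 CPM against 6.72 in WT. Slc7a8 was also higher in SC35-KO, at 89.9 CPM, against 62.1 CPM in WT. The L-type calcium channel subunit Cacna1d was lower under both labels, at 87.1 CPM in ASF-KO and 77.2 in SC35-KO, against 157 in WT. Ffar1, a fatty acid receptor, was lower in ASF-KO at 0.557 times. At a 2-fold limit only 1 listed gene of any list passed in ASF-KO and 0 in SC35-KO.

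Of 10 selenium and antioxidant genes, Gpx1, the intracellular relative of Gpx3, was lower in ASF-KO at 43.4 CPM, against 65.6 in WT, and Selenok was higher in SC35-KO at 286 CPM, against 215. Of the plasma carriers 2 were measured. Rbp4, the retinol carrier that binds transthyretin, was at 839, 794 and 743 CPM in ASF-KO, SC35-KO and WT, and Apoe, the apolipoprotein E gene, at 8.35, 17.0 and 20.9 CPM, lower in ASF-KO. In that comparison Apoe passed 10 CPM in the WT sum alone, so lower was the only call open to it.

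Across 15 sums (5 classes of at least 100 cells in 3 libraries), likeness to Gcg was measured as Pearson's r of log2(CPM + 10) among 1819 genes with at least 50 CPM in every alpha sum. Among the 5 genes most like Gcg outside the members were Pdk4 (0.964), Rab3c (0.944) and Rnf130 (0.937). Pdk4, which encodes a kinase that inhibits pyruvate dehydrogenase, was at 66.4, 114 and 131 CPM in the alpha cells of ASF-KO, SC35-KO and WT and at most 0.712 CPM in beta cells. The members ran from Irx2 (0.965), Ttr (0.952) and Irx1 (0.934) over Pou3f4 (0.895), Slc38a5 (0.761) and Gpx3 (0.741) down to Gc (0.560). Like the mean of the standardised members were Edn3 (0.976), Wnk3 (0.975), Rab3c (0.963), Vwde (0.957) and Ptprd (0.951). Sums of 1 library share its free RNA and depth, so these values describe the sums and carry no test.

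Gcg-rich cells outside the alpha gate included some of no class and some rich in insulin. Without any class were 165, 583 and 132 cells of at least 2% Gcg, in which Gcg was at 217048, 255898 and 179335 CPM and Ttr at 30302, 38564 and 31305 CPM, close to the alpha cells of the same library. Their median depth was 7227, 5753 and 6447 UMIs, below that of alpha cells. Cells with at least 20% insulin and at least 2% Gcg numbered 57, 132 and 174, or 0.805%, 1.22% and 1.93% of kept cells. They had 132, 145 and 200 Ttr UMIs per 1000 Gcg UMIs. Their median depth was 33068, 16628 and 26528 UMIs, where beta cells had 26752, 17318 and 22575 UMIs, and whether they are doublets that the caller missed was not tested.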

How the data were processed

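The authors deposited UMI counts per gene and barcode of 3 libraries (Cell Ranger 5.0.0, per the file headers), as whole numbers without normalization. The submitters' processing notes also name STAR, Seurat and mm10, with no role given. The lowest total per barcode was 557, 500 and 500 UMIs in ASF-KO, SC35-KO and WT.

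Barcodes with at least 500 genes, 1000 UMIs and at most 20% mitochondrially encoded UMIs were kept, and doublets called by Scrublet (scanpy 1.11.5) were removed (319, 886 and 291 cells, or 4.31%, 7.58% and 3.13%). Under the looser and stricter filters these calls were carried over by barcode. Each cell was gated on markers: beta cells by insulin at 20% of UMIs, delta cells by Sst at 1%, gamma cells by Ppy at 10%, other classes by a marker sum of at least 5 UMIs and 2000 CPM, and alpha cells by a pair of marker genes. Results on a few genes, the gate pair among them, are not reported here. Cells passing more than 1 gate (311, 450 and 631) or none (290, 790 and 366) were left out of the classes, as were the cells of the acinar gate. The markers were listed before the gate's limits were set, which followed a look at the data. The 8 members and all lists were chosen with earlier results of these data known.

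UMIs were summed per class and library and scaled to CPM. Sums carry exact Poisson intervals, shares Clopper-Pearson intervals and ratios the exact conditional binomial interval of 2 counts. Of these, only the ratio interval was tried on simulated counts. The counts were drawn with counting error alone, so the trial does not bear on differences between cells, mice or libraries. PCR duplicates are merged by UMIs, yet all intervals and floors (3 UMIs) cover counting error only. No test was run, as each genotype has 1 library. Named genes are the 8 members, up to 4 per list farthest from the median gene, and the 5 genes most like Gcg and most like the mean of the members. Further listed genes past the 1.5-fold limit were named after their values were seen. Alternatives changed the scaling, the cell filter, doublet removal, the alpha gate, the free RNA reference, thinning and the call limits. The work used scipy 1.17.1 and pandas 2.3.3 with numpy 2.4.6 in python 3.11.15, and figures were drawn with matplotlib 3.10.9.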

Additional observations from a re-analysis of the deposited data

Results flagged for a closer look

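In 6 cases a member stood on opposite sides of the median gene in alpha cells and in another class of the same library, with both counting intervals clear of it and both sums above free RNA. None of these differences was tested. Values are folds against WT relative to the median gene of the class.

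Gcg in ASF-KO was at 1.16 in alpha cells, 0.904 in beta cells and 0.928 in gamma cells. In gamma cells the median gene stood at 1.34 times WT in ASF-KO, and the CPM ratio of Gcg there was 1.24, on the same side of 1 as the 1.19 of alpha cells. Slc38a5 in ASF-KO was at 1.51 in delta cells, from 59 and 44 UMIs, and 0.674 in alpha cells. Its delta interval reached down to 1.004. It entered there through the ASF-KO sum alone (12.7 CPM, and 8.34 in WT), so its side in delta cells is partly set by the CPM limit. Gpx3 in ASF-KO was at 1.67 in beta cells and 1.17 in delta cells, and 0.970 in alpha cells. Gpx3 in SC35-KO was at 1.398 in beta cells and 0.882 in alpha cells. In beta cells the median gene itself stood at 0.739 times WT in ASF-KO and 0.738 in SC35-KO, and the CPM ratio of Gpx3 there was 1.23 and 1.03.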

How the results depend on the processing

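No paired analysis was possible because each genotype has 1 library. No call changed direction. The ratio of Gcg to WT in alpha cells stayed above 1 in all 10 alternatives of each comparison. In ASF-KO (1.19) it moved beyond its counting interval to 1.27 without hormone and mitochondrially encoded genes in the total, 1.25 without the 8 members, 1.17 with median-of-ratios factors, 1.19 with doublets kept, 1.18 with alpha cells gated on Gcg, 1.23 with free RNA subtracted and 1.18 with all cells weighing equally. In SC35-KO (1.42) it moved to 1.59, 1.59 and 1.62 under the same 3 scalings, 1.43 with the stricter filter, 1.42 with doublets kept, 1.39 with the gate on Gcg, 1.41 with equal weights and 1.43 in alpha cells of 5000 UMIs or more, an alternative chosen after seeing the data. The count of members past 1.5-fold in ASF-KO was 0, and 1 (Slc38a5) with equal weights. In SC35-KO it was 2, and 3 in the 3 alternatives in which Ttr passed. The 56 sums above free RNA became 31 under the stricter filter, which kept few endothelial cells. The 9 listed genes past the fold in ASF-KO became 1 at 2-fold and 5 at a minimum of 50 CPM, and the 5 in SC35-KO became 0 at 2-fold. Depth limits Pou3f4, Irx1 and Slc38a5 outside alpha cells, where sums were often under 100 UMIs, and endothelial sums of 0 to 4 UMIs leave their distance from free RNA wide.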
